A study of Mus musculus with 8 samples.

Results

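The regions described here are P300 binding regions of mouse embryonic stem cells that were called in both wild-type libraries but in no more than 1 of the 2 libraries of Alkbh5 del-cIDR cells (ΔcIDR below). Peaks of the 4 P300 lists on chromosomes 1 to 19 and X were joined into 1 region wherever they overlapped by 1 bp or more, which gave 4500 regions. Of these, 343 met the rule, which is 7.62% of all regions. Within the 343, 185 regions (4.11% of all regions) had no ΔcIDR peak and 158 had a peak in exactly 1 ΔcIDR list, 76 in replicate 1 and 82 in replicate 2. The rule chose the regions by their P300 calls, so their P300 values are given as a description with no test. The measurements that the rule did not use are the YY1 lists from the same series and the positions of the regions.

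The study mapped YY1 and P300 by CUT&RUN, an assay that tethers a nuclease to an antibody so that DNA near the bound protein is released and sequenced. All 8 libraries came from E14TG2a, an established mouse embryonic stem cell line grown with LIF and the kinase inhibitors PD0325901 and CHIR99021. The WT group carries no alteration by its labels, and the ΔcIDR group carries Alkbh5 del-cIDR, where the series title writes of intrinsically disordered regions and the meaning of the c is not given in the labels. Each antibody and genotype had 2 libraries, and the labels say neither whether the replicates were separate cultures nor whether the ΔcIDR cells are 1 clone.

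P300, encoded by Ep300, is a histone acetyltransferase and coactivator that transcription factors bring to enhancers and promoters, and its binding is widely used to locate enhancers in embryonic stem cells. YY1, a transcription factor with zinc fingers, binds many promoters and enhancers and can bring such sites together. ALKBH5 removes methyl groups from adenosines in RNA. The files give positions on the mouse build GRCm39 without gene names, and no annotation or genome of that build was used here, so the regions are given by position and without nearby genes or sequence.

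The P300 lists were short and unequal in length. On chromosomes 1 to 19 and X they held 1452 and 2474 peaks in WT replicates 1 and 2, and 1322 and 1286 peaks in ΔcIDR replicates 1 and 2. The YY1 lists held 3519 and 5833 peaks in WT replicates 1 and 2, and 9167 and 15517 in ΔcIDR replicates 1 and 2. Read totals are not in the files, so the depth behind a call is unknown. A region absent from a list failed the calling threshold there, and its binding in that library is unknown.

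More than 1 in every 2 regions found in both WT libraries met the rule. Both WT lists shared 624 regions, of which the 343 were 55.0%. The rule with the genotypes exchanged (both ΔcIDR lists and at most 1 WT list, called the reverse class below) found 180 regions, 4% of all regions, of which 62 (1.38% of all regions) had no WT peak. The 180 were 39.0% of the 461 regions in both ΔcIDR lists. With the 1286 highest-ranked peaks of every P300 library, 229 regions met the rule and 197 fell in the reverse class. These were 46.6% of the 491 regions in both WT lists and 42.9% of the 459 regions in both ΔcIDR lists. The WT class stayed the larger one at equal length, with a smaller lead.

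Signal at the member regions was of middle rank. The authors' deposited fold, a ratio of the signal at a peak's summit to a local background, had a median of 5.10 in WT replicate 1 (range 2.09 to 12.97) and 5.23 in WT replicate 2 (2.48 to 14.1) over the 343 regions. The median percentile of −log10 q within the list, where 100 is the best-ranked peak, was 54.0 in WT replicate 1 and 64.9 in WT replicate 2. The 281 regions in all 4 lists had median folds of 7.75 and 7.82 and median percentiles of 88.2 and 93.4 in the same WT lists. Regions called in a single WT list had medians of 4.75 and 4.67 for the fold and 32.5 and 36.7 for the percentile. The members thus lay between the regions of 1 WT list and the regions of all lists.

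**Figure D1:**
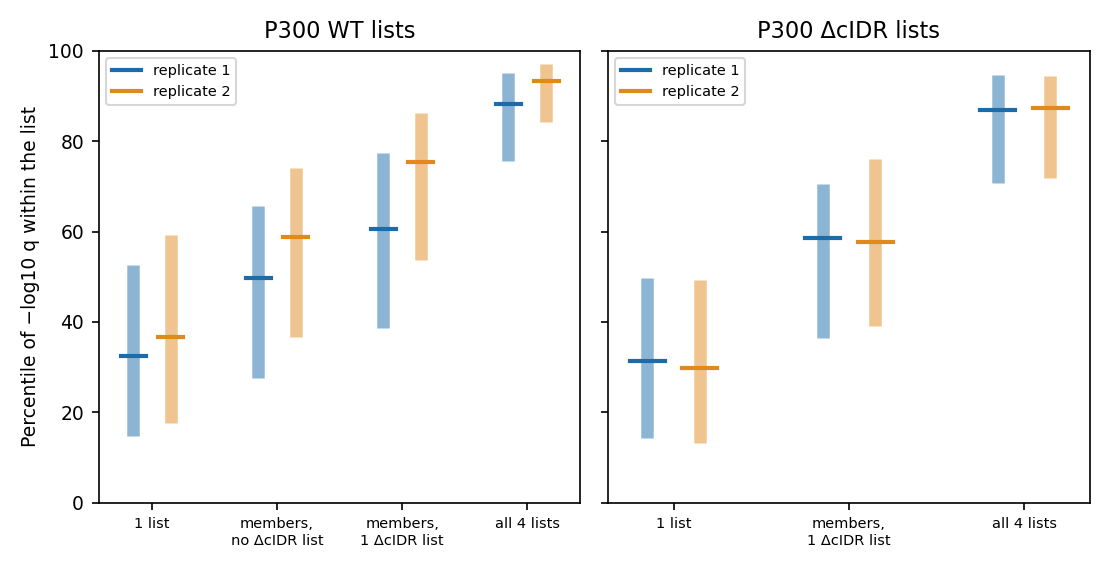
Percentile of −log10 q within each P300 list (vertical axis, 0 to 100) for sets of regions, with WT lists on the left and ΔcIDR lists on the right. Bars span the middle 50% of regions and lines mark the medians. In the WT lists the medians step up from regions in 1 list (32.5 and 36.7) through the members to regions in all 4 lists (88.2 and 93.4).

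The members just inside the rule, with 1 ΔcIDR peak, ranked above those with none. Their median WT folds were 5.33 and 5.58 in replicates 1 and 2, against 4.95 and 5.08 for the 185 regions with no ΔcIDR peak. The median percentiles were 60.7 and 75.5, against 49.8 and 58.8. Just outside the rule stood the regions of all 4 lists, with the values given above. In the ΔcIDR list that held them, the 158 regions had a median fold of 5.15 in replicate 1 (n = 76) and 5.09 in replicate 2 (n = 82). Folds of separately called libraries are not on a common scale, so they are set side by side here and do not measure a change in binding. The ΔcIDR fold was below both WT folds in 68 of the 158 regions, between them in 50 and above both in 40.

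Few members were strong in both WT replicates, and few sat at the calling threshold. The weaker of a region's WT −log10 q values had a median of 3.64 and was at least 5 in 87 of 343 members (25.4%), against 223 of the 281 regions in all 4 lists (79.4%). Of the 87 regions, 31 had no ΔcIDR peak and 56 had 1. The weaker −log10 q was under 2, close to the lowest values of the lists (1.304 to 1.312), in 26 members (7.58%), 20 of them with no ΔcIDR peak.

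**Figure D2:**
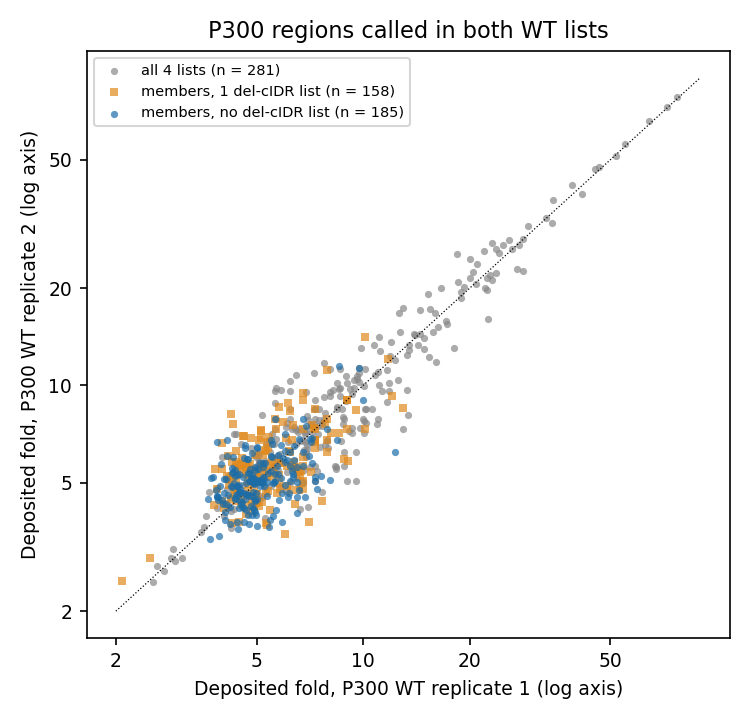
Deposited fold at each region called in both WT P300 lists, with replicate 1 on the horizontal and replicate 2 on the vertical axis, both logarithmic. The 343 members (blue and orange) crowd near a fold of 5, while regions of all 4 lists (grey) run along the dotted line of equal values up to 78.2.

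The WT replicates ordered the members only loosely. Fold was higher in WT replicate 2 at 184 members and in WT replicate 1 at 159. Spearman's rho of the fold between the WT lists was 0.47 across the 343 members and 0.42 across the 185 with no ΔcIDR peak, against 0.88 across the 281 regions of all 4 lists. These values describe regions of the same 2 libraries, which are not independent replicates, and the members span a narrow range of folds. The summits of the WT replicates lay a median of 52 bp apart at the members, 64 bp at those with no ΔcIDR peak and 43 bp at those with 1. At the regions of all 4 lists the median was 11 bp. In 256 of 343 members (74.6%) the WT summits lay within 100 bp of each other, and the largest distance was 425 bp.

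**Figure D3:**
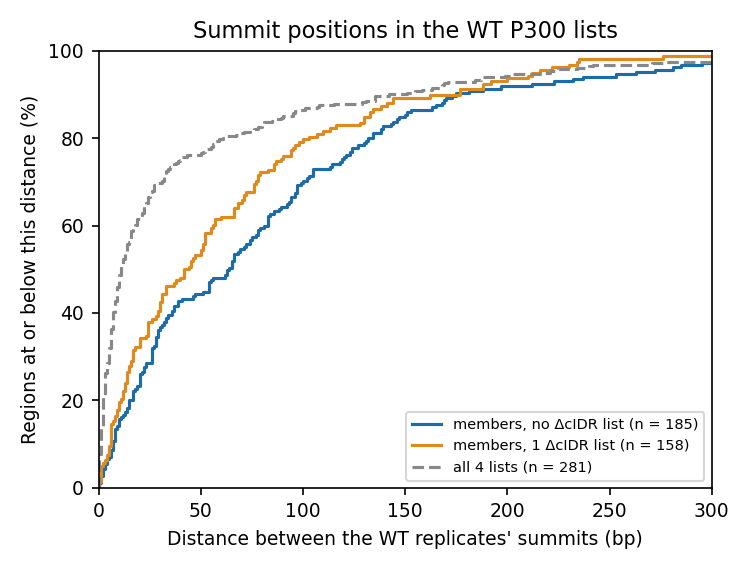
Share of regions (vertical axis, %) whose P300 summits in WT replicates 1 and 2 lie within a given distance (horizontal axis, bp, cut at 300). The dashed curve of regions in all 4 lists rises fastest, with a median of 11 bp, against 64 bp and 43 bp for the members with no and with 1 ΔcIDR peak.

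Most members without a ΔcIDR peak had no ΔcIDR P300 peak close by. Of the 185 regions, 22 had a ΔcIDR P300 peak within 500 bp, 26 within 1000 bp and 38 within 10 kb, and the median distance to the nearest one was 205 kb. No such distances are given for other P300 regions, so these counts do not set the members apart. Of the 158 members with 1 ΔcIDR peak, 7 had a peak of the other ΔcIDR list within 500 bp. When P300 peaks were also joined across gaps of up to 100 bp, 341 of the 343 members still overlapped a region that met the rule.

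The best-ranked members without a ΔcIDR peak were led by 3 regions with WT folds near 10. On chromosome 3 from 3002017 to 3002175, a region of 159 bp, the fold was 10.0 in WT replicate 1 and 8.99 in WT replicate 2, with −log10 q of 48.4 and 42.5. No YY1 list held a peak there, and the WT summits were 2 bp apart. The second, on chromosome 11 between 3087382 and 3087605, had WT folds of 9.77 and 11.4, again with no YY1 peak. The third, on the same chromosome between 31872599 and 31872822, had WT folds of 8.53 and 11.5, and both WT YY1 lists held a peak with YY1 folds of 12.5 and 10.8 in replicates 1 and 2. Neither ΔcIDR YY1 list held one, so this region was called in all 4 WT libraries of both antibodies and in no ΔcIDR library.

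From the fourth region on, folds were lower and similar to one another. The region on chromosome 10 from 22024817 to 22025037 had P300 folds of 7.16 and 6.88 in WT replicates 1 and 2. All 4 YY1 lists held a peak there, with folds of 5.54 and 4.36 in WT and 5.998 and 4.94 in ΔcIDR replicates 1 and 2, so YY1 was called in both genotypes where P300 was called in one. The region on chromosome 10 from 51339958 to 51340300 had P300 folds of 7.08 and 6.84. Chromosome 5 from 110617316 to 110617589 had 6.39 and 5.88, and chromosome 9 from 109738792 to 109739107 had 7.30 and 5.205. None of these 3 had a YY1 peak. On chromosome 6 between 120103364 and 120103715 the P300 folds were 7.11 and 6.69, and 3 of the 4 YY1 lists held a peak, with YY1 folds of 5.02 in WT replicate 2 and 4.84 and 4.59 in ΔcIDR replicates 1 and 2. The list ended with chromosome 9 from 56167686 to 56168047 (6.89 and 7.49) and chromosome 17 from 17329399 to 17329925 (7.88 and 7.33), neither with a YY1 peak. The 10 regions lay on 7 chromosomes, and 7 of them had no YY1 peak in any list, against 115 of the 185 (62.2%) and 64% of all P300 regions.

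The best-ranked members with 1 ΔcIDR peak lay mostly where P300 peaks are dense. Of the 10 leading ones, 7 lay in windows of 1 Mb that held at least 10 peaks in every P300 list, called crowded windows below. On chromosome 14 from 16506799 to 16507170 the P300 fold was 11.8 and 12.1 in WT replicates 1 and 2 and 10.3 in ΔcIDR replicate 1. On chromosome 14 from 15224927 to 15225132 it was 12.1 and 9.29 in WT and 6.84 in ΔcIDR replicate 2. On chromosome 4 from 147110893 to 147111105 it was 10.1 and 14.1 in WT and 10.1 in ΔcIDR replicate 1. The ΔcIDR fold was the lowest of the deposited values at each of these 3 regions, and at the last it was close to the lower WT value. The ranking used the WT lists alone, which favours regions with high WT values, so this order is a description of the choice. Across all 158 members with 1 ΔcIDR peak, the ΔcIDR fold was below both WT folds in 68 and above both in 40.

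Other leading regions showed the spread in the ΔcIDR list that held them. On chromosome 14 from 15226989 to 15227188 the fold was 12.4 in ΔcIDR replicate 2, above 9.01 and 9.03 in the WT lists, and ΔcIDR replicate 1 held no peak. On chromosome 14 from 122806341 to 122806506, outside the crowded windows, the WT folds were 13.0 and 8.51 and the fold in ΔcIDR replicate 2 was 8.54. On chromosome 8 from 14356789 to 14356993, also outside, the WT folds were 7.89 and 11.2 and the fold in ΔcIDR replicate 1 was 8.36. On chromosome 18 from 84952335 to 84952999, the third of the 10 outside those windows, the WT folds were 6.29 and 6.76 and the fold in ΔcIDR replicate 1 was 6.67. The remaining 3 all lay in crowded windows. On chromosome 14 at 15465181 the WT folds were 7.25 and 7.41 and the fold in ΔcIDR replicate 2 was 6.92. On chromosome 8 at 21034136 they were 9.54 and 8.41, with 9.20 in ΔcIDR replicate 1, and at 20624797 they were 9.01 and 9.03, with 7.46 in ΔcIDR replicate 1.

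Crowded windows held different shares of the 2 kinds of member. There were 13 such windows, chosen from the P300 peaks themselves, and 11 of them held members. They held 54 of the 343 members (15.7%, Wilson 95% interval 12.3 to 19.97), which is close to 13.0% of all P300 regions. Among members with no ΔcIDR peak, 12 of 185 (6.49%, 3.75 to 11.0) lay in them, and among members with 1 ΔcIDR peak 42 of 158 (26.6%, 20.3 to 34.0). The shares were 38.4% for regions of all 4 lists, 36.1% for the reverse class and 8.50% for regions of a single list. The windows depend on the same calls as the rule, so these shares are a description. The window on chromosome 4 from 147000001 to 148000000 held the most members, 12, of which 4 had no ΔcIDR peak.

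Members lay on every chromosome from 1 to 19 and on X. Of the 343 members, 43 lay within 10 kb of another member, 18 of them outside the crowded windows, and the median distance to the nearest member was 1466 kb. Chromosome 4 carried 24 of the 158 members with 1 ΔcIDR peak (15.2%) and 8 of the 185 with none (4.32%), against 9.33% of the other P300 regions. Chromosome 8 carried 21 (13.3%) and 11 (5.95%), against 8.56%, and chromosome 14 carried 19 (12.03%) and 10 (5.41%), against 6.52%. These 3 chromosomes also hold 8 of the 13 crowded windows. With those windows left out, chromosome 4 carried 4.84% of the members against 7.81% of the other regions, chromosome 8 carried 7.27% against 6.26%, and chromosome 14 carried 4.84% against 4.14%. Chromosome 5 carried 19 members with no ΔcIDR peak (10.3%), against 6.13% of the other regions. Chromosome 3 carried 14 of them (7.57%), against 4.16%, and chromosome 19 carried 8 (4.32%), against 2.19%. Chromosomes 16 and 18 carried 1 each (0.54%), against 3.08% and 2.41%. Chromosome X carried 0 of the 185, which allows a share of up to 1.62% by counting error alone, against 1.71% of the other regions. Among the 158 members with 1 ΔcIDR peak, chromosomes 16, 18 and X carried 5, 5 and 3 (3.16%, 3.16% and 1.90%). Chromosomes 5, 3 and 19 carried 8, 3 and 3 of them (5.06%, 1.90% and 1.90%).

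**Figure D4:**
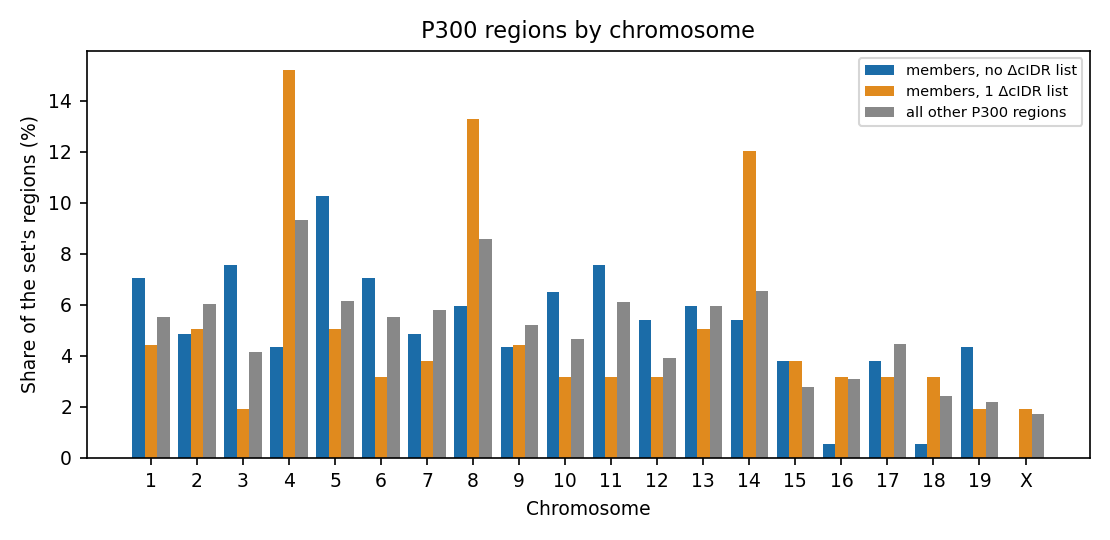
Share of each set's regions (vertical axis, %) on each chromosome for members with no ΔcIDR peak (blue), members with 1 ΔcIDR peak (orange) and all other P300 regions (grey). The orange bars stand above the grey ones on chromosomes 4, 8 and 14, where the blue bars are lower, at 4.32%, 5.95% and 5.41%.

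Of the 281 regions in all 4 P300 lists, 75 were also called in all 4 YY1 lists. Of the 343 members, 3 lay within 10 kb of such a region (0.875%), against 93 of the 4082 other P300 regions (2.28%). None of the 185 without a ΔcIDR peak did. These places were chosen from the P300 calls that the rule used, so the counts are a description. The mouse chromosome sequences begin near their centromeres, and 5 members (1.46%) began below 3.2 Mb, against 46 (16.4%) of the regions in all 4 lists and 1.91% of all P300 regions. The leading members on chromosome 3 at 3002017 and on chromosome 11 at 3087382 are among these 5.

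YY1 peaks were found at 154 of the 343 members (44.9%) when any of the 4 YY1 lists counted, against 1618 of all 4500 P300 regions (36.0%). A YY1 peak in WT replicates 1 and 2 overlapped 43 members (12.5%, Wilson 95% interval 9.44 to 16.5) and 72 members (21.0%, 17.0 to 25.6). In ΔcIDR replicates 1 and 2 it overlapped 81 members (23.6%, 19.4 to 28.4) and 115 members (33.5%, 28.7 to 38.7). Over all P300 regions the shares were 10.6% and 15.6% in WT and 18.5% and 27.1% in ΔcIDR replicates 1 and 2. Both ΔcIDR libraries thus held YY1 at more members than both WT libraries, and the order of the libraries was that of their list lengths.

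**Figure D5:**
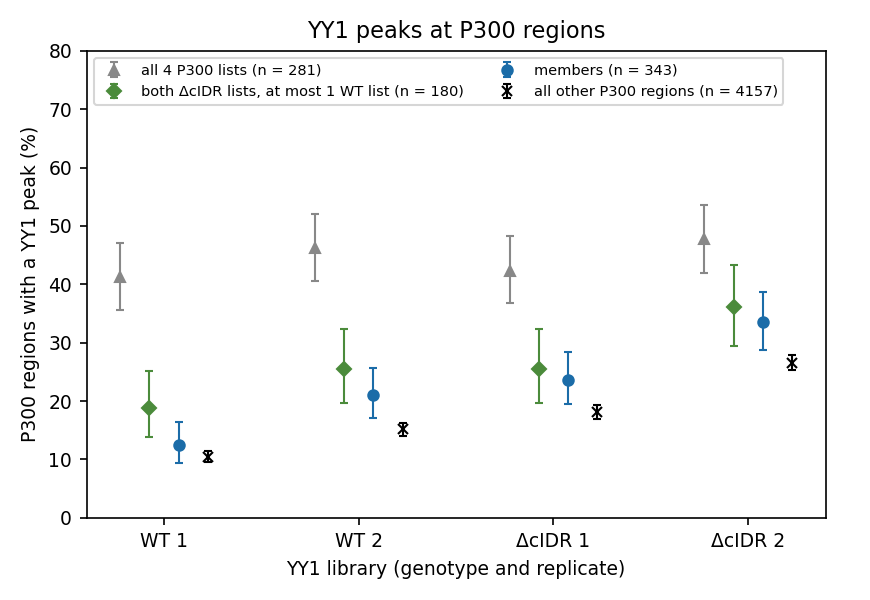
Share of P300 regions with a YY1 peak (vertical axis, %) in each YY1 library, with Wilson 95% intervals of counting error. Members (blue circles) run from 12.5% to 33.5%, above all other P300 regions (crosses) and below regions of all 4 P300 lists (grey triangles, 41.3% to 47.7%) in every library.

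The genotype difference in YY1 at the members depended on which YY1 peaks were counted. The mean share was 28.6% ± 7.01 (SD, n = 2) in ΔcIDR and 16.8% ± 5.98 (SD, n = 2) in WT libraries, a difference of 11.8 percentage points. The two-sided exact permutation test over the 4 libraries gave p = 0.33, the smallest it can give, and 0.533 after Benjamini-Hochberg adjustment over the 8 genotype comparisons made. With the 3519 highest-ranked YY1 peaks of every library the shares were 12.5% and 11.95% in WT and 11.7% and 11.7% in ΔcIDR replicates 1 and 2, a difference of −0.58 points. With YY1 peaks of a −log10 q of at least 5 they were 5.83% and 9.04% in WT and 11.95% and 16.04% in ΔcIDR replicates 1 and 2, a difference of 6.56 points (two-sided exact permutation p = 0.333, the smallest possible, n = 2 per genotype).

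Measured against the other 4157 P300 regions, the members held YY1 slightly more often in every library. Of those 4157 regions, 3342 had a peak in a single P300 list. The excess was 2.10 points in WT replicate 1, 5.86 in WT replicate 2, 5.57 in ΔcIDR replicate 1 and 6.97 in ΔcIDR replicate 2, with a mean of 5.13 ± 2.11 (SD, 4 libraries). It was positive in 4 of 4 libraries, and the two-sided exact sign-flip permutation test gave p = 0.125, the smallest that 4 libraries allow (adjusted p 0.125 after adjustment over 12 such comparisons). Members were wider than the other regions, with a median of 245 bp against 160 bp. With every region replaced by 100 bp to each side of its best P300 summit, the excess was 0.32 and 3.07 points in WT and 4.75 and 5.12 in ΔcIDR replicates 1 and 2. With YY1 lists of equal length it was 1.15 to 2.10 points. At a YY1 −log10 q of at least 5 it was 0.15 and 0.57 points in WT and 1.85 and 2.83 in ΔcIDR replicates 1 and 2. With YY1 peaks within 500 bp it was 0.31 and 3.34 points in WT and 4.04 and 10.6 in ΔcIDR replicates 1 and 2. Between genotypes the excess differed by 2.29 points, higher in ΔcIDR, with overlapping libraries (two-sided exact permutation p = 0.667 before and after adjustment, n = 2 per genotype). Both ΔcIDR libraries lay above both WT libraries when at least 50% of the shorter interval had to overlap (difference 4.11 points), when a YY1 peak counted within 500 bp (5.48 points), at a −log10 q of at least 5 (1.98 points) and with 100 bp to each side of the summit (3.24 points). Each of these had an exact permutation p of 0.333, the smallest that 2 libraries per genotype allow, so the test could not call the difference. With YY1 lists of equal length the difference was −0.042 points (two-sided exact permutation p = 1.0).

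The excess was larger among the members that had 1 ΔcIDR P300 peak. Their YY1 shares were 15.8% and 27.2% in WT and 29.7% and 39.2% in ΔcIDR replicates 1 and 2. The members without a ΔcIDR P300 peak had 9.73% and 15.7% in WT and 18.4% and 28.6% in ΔcIDR libraries, which differed from the regions outside the rule by −0.71 to 2.09 points. The first kind exceeded the second by 9.90 ± 2.57 points (SD, 4 libraries), in 4 of 4 libraries (two-sided exact sign-flip permutation p = 0.125, the smallest possible). Outside the crowded windows the difference was 9.81 points, also in 4 of 4 libraries. When any YY1 list counted, 37.8% of the members without a ΔcIDR P300 peak held one. The share was 37.9% for the 354 regions called in 1 WT and 1 ΔcIDR P300 list.

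Regions of all 4 P300 lists held YY1 more often than the members in every library. Their shares were 41.3% and 46.3% in WT and 42.3% and 47.7% in ΔcIDR replicates 1 and 2, higher than the members by a mean of 21.7 points in 4 of 4 libraries (two-sided exact sign-flip permutation p = 0.125, the smallest possible). The reverse class had 18.9% and 25.6% in WT and 25.6% and 36.1% in ΔcIDR libraries, above the members by 1.94 to 6.35 points in 4 of 4 libraries (two-sided exact sign-flip permutation p = 0.125). Outside the crowded windows the reverse class exceeded the members by 8.93 to 9.92 points.

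YY1 peaks at the members ranked near the middle of the WT lists and above it in the ΔcIDR lists. Their median percentile of −log10 q was 47.6 and 46.7 in WT replicates 1 and 2 and 59.9 and 66.3 in ΔcIDR replicates 1 and 2, where the middle of a whole list lies at 50 by construction. Median YY1 folds were 4.98 and 4.98 in WT and 5.52 and 5.63 in ΔcIDR replicates 1 and 2, against 5.198 and 5.18, and 5.08 and 5.01, over all peaks of those lists. The YY1 lists differ in length, with 3519 and 5833 peaks in WT and 9167 and 15517 in ΔcIDR replicates 1 and 2. Percentiles and folds from such lists are not on a common scale and do not measure a change in binding. Ranks of YY1 peaks at other P300 regions are not given here, so these ranks do not set the members apart. YY1 summits lay a median of 61 to 76 bp from the summit of the stronger WT P300 peak.

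Among the 10 best-ranked members held by all 4 YY1 lists, the highest YY1 folds stood beside P300 folds of 4.70 to 6.48. On chromosome 17 from 85397746 to 85397936 the YY1 fold was 10.1 and 15.6 in WT and 15.7 and 18.7 in ΔcIDR replicates 1 and 2, while the P300 fold was 5.28 and 6.29 in WT and 5.13 in ΔcIDR replicate 2. On chromosome 15 from 80594991 to 80595242 the YY1 folds were 9.18 and 10.9 in WT and 12.02 and 12.7 in ΔcIDR libraries, with P300 folds of 4.70 and 5.92 in WT and no ΔcIDR P300 peak. On chromosome 1 from 171050125 to 171050490 the YY1 folds were 7.04 and 11.5 in WT and 8.11 and 11.9 in ΔcIDR libraries, with P300 folds of 6.38 and 6.48 in WT and no ΔcIDR P300 peak. In all, 21 members (6.12%) were held by all 4 YY1 lists, against 5.56% of all P300 regions, and 8 of the 21 had no ΔcIDR P300 peak.

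The other 7 of these 10 regions included the chromosome 10 region at 22024817 described above. On chromosome 4 from 146987243 to 146987976 the P300 folds were 6.23 and 8.31 in WT and 5.99 in ΔcIDR replicate 1, and the YY1 folds were 5.05 and 4.67 in WT and 5.81 and 6.66 in ΔcIDR libraries. The region on chromosome 14 at 16507355 had P300 folds of 5.68 and 7.33 in WT and a higher 8.78 in ΔcIDR replicate 1. Its YY1 folds were 6.34 and 5.93 in WT and 6.55 and 6.17 in ΔcIDR libraries. On chromosome 14 from 57015916 to 57016100 the P300 folds were 5.78 and 5.76 in WT and 5.10 in ΔcIDR replicate 1, and the YY1 folds were 4.98 and 6.003 in WT and 6.86 and 10.1 in ΔcIDR libraries. On chromosome 12 from 20362048 to 20362616 P300 was called in WT alone, with folds of 4.84 and 5.27. The YY1 folds there were 4.85 and 5.76 in WT and 6.53 and 7.12 in ΔcIDR libraries. Chromosome 13 at 99113861 had P300 folds of 6.59 and 4.74 in WT and 5.21 in ΔcIDR replicate 1. Its YY1 folds were 4.44 and 5.69 in WT and 5.17 and 5.37 in ΔcIDR libraries. Chromosome 17 at 26138955 had P300 folds of 5.48 and 5.69 in WT and 4.42 in ΔcIDR replicate 2. YY1 folds at that region were 4.70 and 3.89 in WT and 5.95 and 7.17 in ΔcIDR libraries.

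YY1 calls that split by genotype ran both ways at the members, more often toward ΔcIDR, whose YY1 lists were longer. YY1 peaks in ΔcIDR lists alone, 1 or both, were found at 71 members, and in WT lists alone at 14. Over all 4500 P300 regions these counts were 763 and 182. Splits with both libraries of a genotype were fewer. Both WT YY1 lists and neither ΔcIDR YY1 list held 4 members (25 of all P300 regions, 0.556%), and both ΔcIDR and neither WT list held 9 (159 of all P300 regions, 3.53%). The 4 regions, all named here after their values were seen, were the chromosome 11 region at 31872599 described above, 1 on chromosome 8 from 41834768 to 41835024, another on chromosome 11 from 3135846 to 3136206 and 1 on chromosome 4 between 147474457 and 147474831. The region on chromosome 8 had P300 folds of 3.89 and 4.53 and YY1 folds of 4.23 and 4.07 in WT replicates 1 and 2, with no ΔcIDR peak of either antibody. The regions at 3135846 and 147474457 each had a P300 peak in ΔcIDR replicate 1, with folds of 2.42 and 5.44. The YY1 peaks of the 9 other regions ranged in fold from 3.71 to 9.06, and 7 of the 9 had 1 ΔcIDR P300 peak.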

How the data were processed

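P300 and YY1 CUT&RUN peak lists of 8 libraries were used, 2 per antibody and genotype. The build GRCm39 and the tools MACS2, BWA, fastp, Picard, featureCounts and SAMtools come from the submitters' processing notes, which state neither roles nor versions. Each deposited list holds the peaks of 1 library with the authors' score, fold (a ratio), −log10 p, −log10 q and summit. The use of a control library in peak calling is not stated in the labels or files. Scores and −log10 p were not used further.

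Positions are counted from 1. Peaks off chromosomes 1 to 19 and X, 0.683% to 10.0% of a list, were left out. Merging and the rule were tested on simulated lists (Python 3.11.15, pandas 2.3.3, SciPy 1.17.1). A region with several peaks in a list takes the one with the highest −log10 q. Libraries are the unit of every test, and no label says that replicates are separate cultures, so p-values reflect library spread, possibly technical. Wilson intervals and the limit for a count of 0 (3 counts) cover counting error only.

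Regions named are the 10 members with no ΔcIDR peak, the 10 with 1 ΔcIDR peak and the 10 held by all YY1 lists with the highest mean percentile of −log10 q in the WT P300 lists. The members, lists and rules were chosen with earlier results of these data known. Planned summaries by gene, gene list and sequence word need a GRCm39 reference and were not computed here. Alternatives were equal list lengths, −log10 q of at least 5, other merging and overlap rules, left-out libraries or windows, and a replicate block.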

Additional observations from a re-analysis of the deposited data

Results flagged for a closer look

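The same rule found P300 regions on sequences outside chromosomes 1 to 19 and X, which the report does not use. On unplaced scaffolds 11 of 122 merged regions met it and 4 fell in the reverse class. On the sequence named dm in the lists, which the labels do not describe, 6 of 45 merged regions met it and 0 fell in the reverse class. On chromosome Y, 3 of 28 regions met the rule and 3 fell in the reverse class, and on the mitochondrial sequence 0 of 4 met it.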

How the results depend on the processing

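Merging rules moved the 343 members to 325 (50 bp shared) or 352 (gaps of 100 bp), and 289 lay outside the crowded windows. At a −log10 q of at least 5, 117 regions met the rule, 52 of them with no ΔcIDR peak, and 96 fell in the reverse class. Only 87 of the 343 members overlapped a region that met the rule at this threshold. Of those 87, 31 had no ΔcIDR peak in the full lists. Members with no ΔcIDR peak numbered 106 at equal list length, and the reverse class held 115 regions outside the crowded windows. Of the 29 named regions, 29 met the rule at equal list length and 24 at the stricter threshold. The named regions were chosen by high −log10 q ranks in the WT lists, so both settings favour keeping them. Leaving out a P300 library leaves 1 list to stand for a genotype. Without WT replicate 1 or 2, 2112 or 1114 regions met the rule. With a ΔcIDR library left out, the rule was changed to ask for no peak in the ΔcIDR list that remained. That gave 261 or 267 regions without ΔcIDR replicate 1 or 2. Regions with no peak in the ΔcIDR lists kept ranged from 261 to 1711 (1711 and 845 without WT replicates 1 and 2). Without a ΔcIDR library these are the same regions as above, and they can hold a peak in the list left out. The reverse class ranged from 108 to 956 (914 and 956 without ΔcIDR replicates 1 and 2, 108 and 134 without WT replicates 1 and 2). With a WT library left out, the reverse class asked for no peak in the WT list that remained.

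For YY1 at the members, equal list length reversed the genotype difference to −0.58 points and that of the excess over other regions to −0.042 points. The mean share over the YY1 libraries fell from 22.7% to 11.95% at equal list length and to 10.7% at a −log10 q of at least 5. Leaving out 1 YY1 library gave genotype differences of 6.85 to 16.8 points, differences of the excess of 0.41 to 4.18 points and mean shares of 19.05% to 26.0%. Without ΔcIDR replicate 2 the genotype difference was 6.85 points, and without WT replicate 1 it was 7.58. The labels give the genotypes equal replicate numbers but do not say that a number marks a shared culture or day. With the replicate block the differences were 11.8 and 2.29 points, each with p = 0.5 by exact sign flips of 2 pairs, the smallest possible. Other settings kept the direction of both differences. The depth of the libraries is unknown, so a missing call cannot be told apart from a low depth.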
